A study of Mus musculus with 14 samples.

Results

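The quantity described here is how far the response of the lung to mechanical ventilation differed between jnk1-/- and wild-type mice. For every probe it is the difference of the ventilation effect, that is ventilated minus control in jnk1-/- mice, minus ventilated minus control in wild-type mice, on the log2 scale. A positive value means a more positive effect in jnk1-/- mice. It was computed over all 14 arrays of the series and all 19621 of 19621 probes, and no measured value entered the choice of samples or probes. Lung RNA was hybridised to single-colour CodeLink UniSet mouse arrays, with 1 animal per array. The groups were 4 ventilated jnk1-/- mice, 3 jnk1-/- controls, 4 ventilated wild-type mice and 3 wild-type controls. The title of 1 ventilated wild-type array spells the strain c47/b in place of c57/b, and it was kept in that group. By the study's methods both genotypes were on the C57/BL6 background, and the jnk1-/- mice lacked the gene in all cells throughout life. The wild-type mice were bought from Jackson Laboratory, and the jnk1-/- mice were generated at Yale University. The study describes the jnk1-/- mice as gray and the wild-type mice as black. Loss of JNK1 therefore cannot be told apart from other differences between the colonies. Ventilated mice were anesthetized, received pancuronium and were ventilated for 8 hours at 10 ml/kg with a positive end-expiratory pressure of 2 cmH2O. Controls were killed directly after induction of anesthesia, so ventilation cannot be told apart from the hours of anesthesia and the paralytic. The mice were adult and, by the study's methods, matched for age and sex.

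JNK1, encoded by Mapk8, is a mitogen-activated protein kinase that responds to cellular stress, cytokines and stretch. It phosphorylates c-Jun, a subunit of the AP-1 transcription factor, which binds short DNA elements near many genes of inflammation, matrix turnover and epithelial differentiation. In the lung, overdistension by a ventilator is known to activate this cascade in epithelial cells, to draw in neutrophils and to damage the alveolar barrier. A difference of the ventilation effect asks which transcripts responded otherwise in jnk1-/- than in wild-type mice.

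The deposited arrays had medians between 4.98 and 6.37 on the log2 scale and, once normalized here, between 5.74 and 5.87. Sftpb, a surfactant protein that marks alveolar type 2 cells, lay between 9.40 and 11.44 on all arrays. The probe of Mapk8 lay at the floor of the authors' normalized table on 9 of 14 arrays, so it checks the genotype little, and its difference of the effect was 0.55 (adjusted p = 0.864 from limma). Wild-type control replicates 2 and 3 differed across probes by an SD of 0.378, and jnk1-/- control replicates 1 and 2 by an SD of 0.328. Other pairs of a group differed by an SD between 0.404 and 0.691. The tissue was bulk lung, so fewer cells of a type and less RNA per cell cannot be told apart. Of the probes, 15353 name 1 gene, and probes for close family members such as the defensins, late cornified envelope genes and myosins may share signal.

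Few transcripts passed the test of a different response. In most of those that did, the genotypes were further apart in the unventilated mice than after ventilation. In limma with Benjamini-Hochberg adjustment over all probes, 78 of 19621 probes passed an adjusted p of 0.05, which is 0.398% of all probes. Of these, 37 were positive (0.189%) and 41 negative (0.209%), against 2609 probes (13.3%) at an unadjusted p under 0.05. With a median shift as the only normalization, 53 of 90 calls were positive, so the balance of directions depends on the scaling. The median difference over all probes was −0.14, and 0.03 after a median shift. The absolute size of the called differences ran between 1.13 and 8.20 on the log2 scale. The ventilation effect itself passed for 2373 probes in jnk1-/- mice (12.1%) and for 675 in wild-type mice (3.44%).

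**Figure D1:**
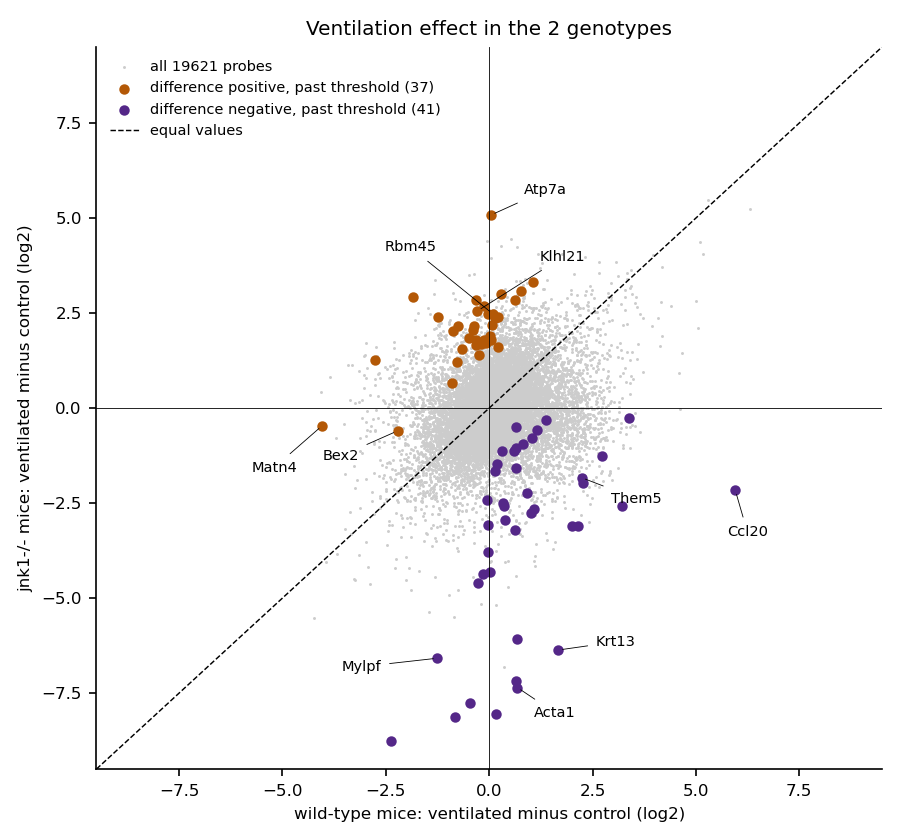
Ventilation effect of every probe in jnk1-/- mice (vertical axis, log2) against that in wild-type mice (horizontal axis, log2), with the 37 positive and 41 negative probes past the threshold in colour and the line of equal effects dashed. In 53 of the 78 coloured points the effect is over 1 in size in jnk1-/- mice and under 1 in wild-type mice, and Bex2 and Matn4 are among the others.

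Among the 78 called probes, the jnk1-/- effect was the larger one in 64 (82.1%), against 54.7% of all probes. The jnk1-/- effect passed its own test in 69 of them and the wild-type effect in 14. Their genotype difference was larger between the controls than between the ventilated mice in 71 (91.0%), against 64.1% of all probes. Between controls the genotypes differed past the threshold in 72 of the 78 (4.02% of all probes), and between ventilated mice in 7 (0.612% of all probes). These measures share their arrays with the difference itself and are given as a description. The 3 jnk1-/- control arrays lay above all 11 other arrays in 31 of the 41 negative probes (3.41% of all probes) and below all 11 in 30 of the 37 positive probes (3.4% of all probes). Ventilated jnk1-/- mice lay above all others in 3 called probes (1.43% of all probes) and below in 2 (0.795%). Ventilated wild-type mice lay above in 0 (0.311%) and below in 1 (0.229%). Wild-type controls lay above all others in 3 called probes (2.51%) and below in 13 (3.15%).

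**Figure D2:**
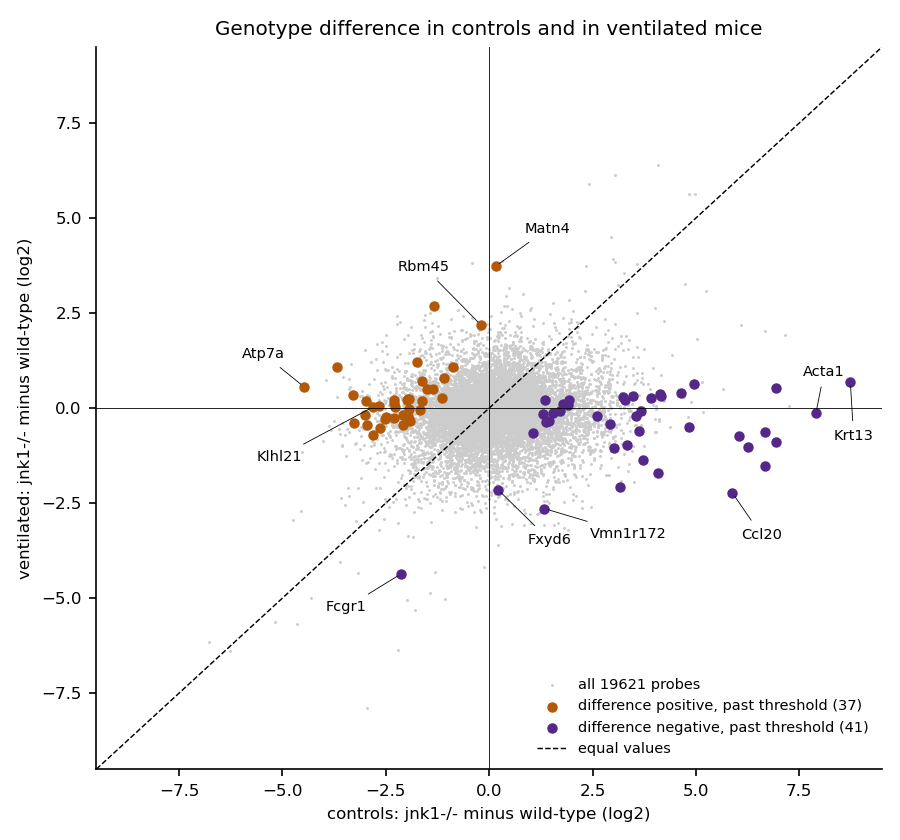
Genotype difference, jnk1-/- minus wild-type, in ventilated mice (vertical axis, log2) against that in controls (horizontal axis, log2), for all probes in grey and the called probes in colour. The called probes spread along the control axis, with Krt13 at 8.73 in controls and 0.69 after ventilation, while Rbm45, Matn4, Fxyd6, Vmn1r172 and Fcgr1 differ after ventilation.

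Most of the largest negative differences were those of skeletal muscle and stratified squamous genes, which were highest in the 3 jnk1-/- control lungs. Ccl20 (−8.12), described below, was in neither list. Of 43 measured skeletal muscle genes 10 passed, all negative, and of 60 squamous genes 9 passed, all negative. Over all 13923 genes 36 negative ones passed (0.259%). Both lists were written with earlier results of these data known, so these counts are a description only. The median difference was −1.32 over the muscle list and −1.23 over the squamous list, against −0.11 over all 13923 genes. The median level of the muscle list per array was between 4.66 and 5.11 in ventilated jnk1-/- mice and between 7.50 and 8.25 in jnk1-/- controls. It was between 4.37 and 5.34 in ventilated wild-type mice and between 5.37 and 5.78 in wild-type controls. For the squamous list these ranges were 4.26 to 4.69 in ventilated jnk1-/- mice, 6.47 to 7.16 in jnk1-/- controls, 4.21 to 4.71 in ventilated wild-type mice and 3.94 to 4.27 in wild-type controls. Of the 60 squamous genes, 8 lay at the authors' floor on every jnk1-/- control array and 14 on every wild-type control array, and of the 43 muscle genes 0 and 10. Both lists mark tissues that adjoin the lung, and the part of adjoining tissue in these samples was not tested.

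Krt13, a keratin of the esophageal and oral lining, had log2 intensities of 3.46, 4.32, 5.55 and 5.25 in ventilated jnk1-/- mice and 11.54, 10.64 and 10.85 in jnk1-/- controls. It had 3.25, 3.88, 5.44 and 3.23 in ventilated wild-type mice and 2.69, 1.60 and 2.54 in wild-type controls. The jnk1-/- controls lay far above all other arrays and the wild-type controls below all others, and the ventilated groups overlapped. The difference of the effect was −8.04 (95% interval −9.90 to −6.18, adjusted p = 0.00156 from limma), and since the 3 wild-type controls were at the authors' floor, the floor sets part of its size. Atp2a1, the calcium pump of fast muscle fibres, had 6.54, 5.93, 5.53 and 5.72 in ventilated jnk1-/- mice and 10.21, 9.95 and 10.56 in jnk1-/- controls. In wild-type mice its probe read 7.26, 6.53, 6.90 and 6.95 after ventilation and 6.77, 7.02 and 6.92 in controls. No array lay at the floor, and the wild-type effect of Atp2a1 was 0.01. Its difference was −4.32 (95% interval −5.11 to −3.53, adjusted p = 5.73e-04 from limma). Its genotype difference, jnk1-/- minus wild-type, was 3.34 between controls and −0.98 between ventilated mice.

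By the same measure Acta1, the actin of skeletal muscle, had a difference of −8.03, the troponin Tnnc2 −7.30, the beta-defensin Defb4 −8.20 and Crct1, of the cornified layer, −7.84. Their sizes depend on the floor, since Acta1 lay at the authors' floor on 3 of 14 arrays, Tnnc2 on 4, Defb4 on 9 and Crct1 on 10. With 1 array left out in turn, Crct1 kept its call in 2 of 14 fits and Tnnc2 in 5 of 14, and over all settings Crct1 ran between −10.98 and −4.32. The study itself listed Acta1, Atp2a1, Tnni2 (−3.75), Defb7 (−6.76) and Calm4 (−4.24) as changed mainly in jnk1-/- mice, a choice made on these same arrays. The myosin light chain Mylpf had −5.33 and Rptn, a repetin of cornified epithelium, −3.33, both named after their values were seen. Krt13, Mylpf, Atp2a1 and Rptn were the 4 named genes that passed under all 12 other ways of processing and with each of the 14 arrays left out in turn. The 1 positive call that did so was probe 18549, which has no gene name here, with a difference of 3.16. It had 8.54, 8.55, 8.00 and 8.97 in ventilated jnk1-/- mice and 5.83, 5.84 and 5.35 in jnk1-/- controls, against 8.65, 8.28, 8.33 and 8.11 in ventilated wild-type mice and 8.50, 8.81 and 8.69 in wild-type controls. Only the jnk1-/- controls were low.

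The letters TGANTCA were looked for in the RefSeq promoter windows (GRCm38.p6, 250 bases before to 50 after each start). This pattern reads the same on both strands. It takes any middle base, so it is wider than the AP-1 element bound by c-Jun, which has C or G there. Matches are shown because AP-1 is the classical target of JNK1. Of the called genes with a window, 1 of 18 positive ones (5.56%) and 2 of 27 negative ones (7.41%) held a match, against 8.21% of the measured genes and 8.97% of all genes with a window. In the squamous list 2 of 6 called genes with a window held one, and the match in Rptn (TGATTCA) has the wider form only. The matches are printed in capitals with flanking bases, and their positions are counted from the start site.
Krt13, chr11:100120528-100120827, minus strand, at −183: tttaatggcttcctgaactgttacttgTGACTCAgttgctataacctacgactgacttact
Krt13, same window, at −34: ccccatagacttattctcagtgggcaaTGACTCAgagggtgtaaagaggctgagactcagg
Rptn, chr3:93393449-93393748, plus strand, at −96: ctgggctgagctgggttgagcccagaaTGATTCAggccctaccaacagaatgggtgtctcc
Klhl21, chr4:152008641-152008940, plus strand, at −108: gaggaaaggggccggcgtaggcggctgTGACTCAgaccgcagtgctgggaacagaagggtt
A second annotated start of Krt13 (chr11:100121517-100121816) held another match, at −196, of the wider form only (TGAATCA). A match is a description of the letters only.

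Outside the muscle and squamous lists 59 probes passed, 37 positive and 22 negative, and 40 of them were above the authors' floor on all 14 arrays. The following negative genes stood in none of the lists. Lce3b and Lce1d, late cornified envelope proteins of the epidermis, had differences of −2.83 (95% interval −3.48 to −2.18) and −1.80 (95% interval −2.54 to −1.06). The beta-defensin Defb5 had −3.07, Gsdma, a gasdermin of skin, −3.17 and Trex2, a nuclease of keratinocytes, −5.10. In all 5 the jnk1-/- controls lay above all other arrays, and 6 of the 14 arrays of Trex2 lay at the authors' floor. Srpk3, a protein kinase of muscle, had −1.72, with 1 of its 2 probes called. With 1 array left out, Lce3b kept its call in 14 of 14 fits, Defb5 in 13, Trex2 in 6 and Gsdma in 5. Lce1d and Srpk3 kept theirs in 3 each.

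Slpi, a secreted inhibitor of neutrophil elastase made by airway epithelium, was the 1 called gene of the neutrophil list. It had 10.40, 10.85, 10.49 and 10.88 in ventilated jnk1-/- mice and 11.82, 11.71 and 11.56 in jnk1-/- controls, against 10.77, 10.49, 10.50 and 10.48 in ventilated wild-type mice and 9.61, 9.86 and 10.27 in wild-type controls. The controls of the genotypes bracketed the ventilated arrays, which overlapped with each other. Slpi fell by 1.04 with ventilation in jnk1-/- mice (adjusted p = 0.0063 from limma) and had a wild-type effect of 0.64 (adjusted p = 0.093). The difference was −1.69 (95% interval −2.29 to −1.08, adjusted p = 0.0264), and under a median shift the adjusted p was 0.148. It passed in 5 of the 14 fits with 1 array left out.

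Them5, an acyl-CoA thioesterase of mitochondria, moved in opposite directions. It had 5.72, 6.29, 7.30 and 7.09 in ventilated jnk1-/- mice and 9.07, 8.00 and 8.22 in jnk1-/- controls. Ventilated wild-type mice had 8.12, 7.55, 7.50 and 7.41 and wild-type controls 5.23, 5.43 and 5.57. Within each genotype the ventilated and control arrays did not overlap. Them5 fell by 1.83 in jnk1-/- mice (adjusted p = 0.01 from limma) and rose by 2.23 in wild-type mice (adjusted p = 0.0094), a difference of −4.07 (95% interval −5.23 to −2.90, adjusted p = 0.0108). The call held with each array left out in turn and was lost in 2 of 12 other ways of processing, at an adjusted p of 0.0608 with a replicate block and 0.12 by the methods' t-test. Opposite effects of at least 1 on the log2 scale in both genotypes were seen in 13 called probes, 10 negative and 3 positive, against 416 of all 19621 probes.

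In 3 further negative genes the wild-type effect was the larger. Larp4b, an RNA-binding protein of the La family, rose by 1.16 in wild-type mice, against an effect of −0.57 in jnk1-/- mice, with a difference of −1.73. 9130015A21Rik, a transcript of no known role, rose by 1.38 in wild-type mice, against −0.33 in jnk1-/- mice, with a difference of −1.70 (95% interval −2.25 to −1.16). Strc, stereocilin of the inner ear, rose by 0.65 in wild-type mice, against −0.49 in jnk1-/- mice, with a difference of −1.13, the smallest of all calls. In all 3 the jnk1-/- controls started higher than the wild-type controls, by 1.94, 1.05 and 1.35. With 1 array left out, Larp4b kept its call in 3 of 14 fits, 9130015A21Rik in 11 and Strc in 1.

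The 37 positive probes were mostly transcripts that were lowest in the 3 jnk1-/- control lungs, and 34 of them passed the test of the jnk1-/- ventilation effect. Their median jnk1-/- effect was 2.01 and their median wild-type effect −0.24. Their median genotype difference was 0.17 between ventilated mice and −2.08 between controls. None lay in the muscle or squamous list. No gene name was available for 16 of the 37 (43.2%), against 12.2% of the negative and 21.8% of all probes. Their median level over all arrays was 6.98, against 5.77 for all probes, and 29 of the 37 were above the authors' floor on every array.

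Ccnt2, a cyclin of the elongation factor P-TEFb, had 10.16, 9.87, 9.72 and 10.32 in ventilated jnk1-/- mice and 8.54, 8.43 and 8.02 in jnk1-/- controls. In wild-type mice it had 10.01, 9.83, 10.14 and 10.25 after ventilation and 10.04, 10.47 and 10.27 in controls. The jnk1-/- controls lay below all others and the remaining groups overlapped. The difference was 1.89 (95% interval 1.26 to 2.52, adjusted p = 0.0226 from limma), and it passed in 9 of the 14 fits with 1 array left out. Tulp4, of the tubby-like family, had a difference of 1.92, with 1 of its 2 probes called, and passed in 5 of these 14 fits. Ogt, the enzyme that attaches N-acetylglucosamine to nuclear and cytoplasmic proteins, had 1.99, with a jnk1-/- effect of 1.21 and a wild-type effect of −0.79.

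The tubulin and actin cytoskeleton list had no called gene and a median difference of −0.44. At an unadjusted p under 0.05, 0 of its 24 measured genes were positive and 6 negative, against 5.81% and 7.26% of all genes. Among the single positive calls, Klhl21, a substrate adaptor of a cullin ubiquitin ligase, had 9.24, 10.01, 8.87 and 10.25 in ventilated jnk1-/- mice and 7.17, 7.13 and 6.82 in jnk1-/- controls. It had 9.69, 9.13, 9.86 and 9.60 in ventilated wild-type mice and 9.47, 10.13 and 9.96 in wild-type controls. Only the jnk1-/- controls were low. The difference was 2.84 (95% interval 1.84 to 3.84, adjusted p = 0.0264 from limma), and it passed in 4 of the 14 fits with 1 array left out. Lpp, a LIM protein of focal adhesions, had 2.52, and Pkp2, a plakophilin of desmosomes, 2.93, with 1 of 2 probes called for Klhl21 and for Pkp2. Lpp and Pkp2 each also passed in 4 of the 14 fits.

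Among proteases and matrix proteins, Adam1a, a membrane metalloprotease best known from sperm, had 6.67, 7.18, 6.67 and 6.62 in ventilated jnk1-/- mice and 4.43, 4.18 and 4.55 in jnk1-/- controls. Wild-type mice had 6.19, 6.29, 6.61 and 7.09 after ventilation and 6.41, 6.36 and 6.25 in controls. Its difference was 2.19 (95% interval 1.49 to 2.90, adjusted p = 0.0201 from limma), and the study listed it among genes changed mainly in jnk1-/- mice. Adam1a kept its call in 9 of the 12 other ways of processing and in 12 of the 14 fits with 1 array left out. Adamtsl2, a secreted protein that binds latent TGF-beta binding proteins, rose by 3.07 in jnk1-/- mice, against an effect of 0.76 in wild-type mice, a difference of 2.31 at an adjusted p of 0.0499 that passed in 1 of the 14 fits with 1 array left out. Tpp2, a large cytosolic peptidase, had 1.86, with 1 of its 3 probes called, and passed in 3 of these 14 fits. Where a gene had other probes, none of them passed, so these genes rest on 1 probe each.

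Atp7a, a copper transporter, had the largest positive difference, 5.04 (95% interval 3.27 to 6.80, adjusted p = 0.0264 from limma). It read 7.74, 7.40, 5.76 and 6.77 in ventilated jnk1-/- mice and 2.14, 1.84 and 1.54 in jnk1-/- controls, all 3 of which lay at the authors' floor. Ventilated wild-type mice had 5.71, 7.96, 5.46 and 6.32 and wild-type controls 6.14, 6.61 and 6.20. Only the jnk1-/- controls were low, the size of the difference depends on the floor, and it passed in 5 of the 14 fits with 1 array left out.

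A smaller set of genes differed between the genotypes after ventilation. Rbm45, an RNA-binding protein found in stress granules and in neuronal inclusions, had 6.84, 7.25, 8.05 and 7.52 in ventilated jnk1-/- mice and 5.02, 4.84 and 4.96 in jnk1-/- controls. It had 5.23, 5.29, 5.03 and 5.38 in ventilated wild-type mice and 5.07, 4.96 and 5.39 in wild-type controls. The 4 ventilated jnk1-/- arrays lay above all 10 others (1.43% of all probes), and the other 3 groups overlapped. Rbm45 rose by 2.48 in jnk1-/- mice, against a wild-type effect of 0.09. The difference was 2.39 (95% interval 1.63 to 3.14, adjusted p = 0.0201 from limma), and the ventilated genotypes differed by 2.19 and the controls by −0.20. Without jnk1-/- control replicate 2 or 3 the adjusted p of Rbm45 was 0.0577 or 0.0547. The call was kept in 9 of the 12 other ways of processing, and the highest adjusted p over all settings was 0.144.

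Tbx6, a T-box transcription factor of the embryonic mesoderm, was also highest in the ventilated jnk1-/- mice, at a lower level. It had 5.97, 5.34, 5.29 and 5.78 in ventilated jnk1-/- mice and 3.60, 3.91 and 4.33 in jnk1-/- controls, against 4.60, 4.59, 4.51 and 4.33 in ventilated wild-type mice and 4.54, 4.84 and 5.06 in wild-type controls. The ventilated jnk1-/- arrays were the highest and the jnk1-/- controls included the lowest. The difference was 1.96 (95% interval 1.25 to 2.66, adjusted p = 0.0264 from limma), but the call was lost with 10 of the 14 arrays left out in turn. Among the called probes the ventilated jnk1-/- arrays lay above all others also in probe 8311, which has no gene name here.

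Fxyd6, a regulator of the sodium pump, and Fcgr1, the high-affinity receptor for IgG on macrophages, were the called genes whose ventilated jnk1-/- arrays lay below all others (0.795% of all probes). Both were named after their values were seen. Fxyd6 had 2.38, 3.28, 2.80 and 3.36 in ventilated jnk1-/- mice and 5.34, 5.64 and 5.16 in jnk1-/- controls. Wild-type mice had 4.97, 5.26, 5.24 and 4.95 after ventilation and 5.29, 4.89 and 5.33 in controls. Only the ventilated jnk1-/- mice were low, 3 of the 4 at the authors' floor, and Fxyd6 fell there by 2.42 (adjusted p = 2.1e-04 from limma), against a wild-type effect of −0.06. Its difference was −2.36 (95% interval −3.11 to −1.60, adjusted p = 0.0201). The call of Fxyd6 was kept in 9 of the 12 other ways of processing and in 12 of the 14 fits with 1 array left out.

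Fcgr1 had 2.35, 2.64, 2.64 and 2.47 in ventilated jnk1-/- mice, all at the authors' floor, and 4.17, 4.19 and 3.97 in jnk1-/- controls. Ventilated wild-type mice had 6.49, 6.84, 7.83 and 6.40 and wild-type controls 6.42, 6.35 and 5.97. Both jnk1-/- groups lay below both wild-type groups, so the probe also differed between the controls, by −2.13. The difference of the effect was −2.23 (adjusted p = 0.0485 from limma), and in the authors' normalized values its adjusted p was 0.179. The call was kept in 2 of the 14 fits with 1 array left out and in 3 of the 12 other ways of processing. Whether the probe reads both genotypes equally was not tested.

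In Bex2 the wild-type controls stood apart. Bex2, a small adaptor protein expressed in neurons and neuroendocrine cells, had 8.06, 7.88, 7.29 and 7.61 in ventilated jnk1-/- mice and 8.26, 8.30 and 8.37 in jnk1-/- controls. It had 7.76, 7.74, 7.61 and 7.92 in ventilated wild-type mice and 9.96, 9.98 and 9.99 in wild-type controls. The wild-type controls lay above all 11 other arrays (2.51% of all probes). Bex2 fell by 2.22 in wild-type mice (adjusted p = 1.3e-04 from limma), against an effect of −0.60 in jnk1-/- mice (adjusted p = 0.052). The difference was 1.62 (95% interval 1.05 to 2.18, adjusted p = 0.0264), and it passed in 4 of the 14 fits with 1 array left out. The study listed Bex2 as changed mainly in wild-type mice.

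**Figure D3:**
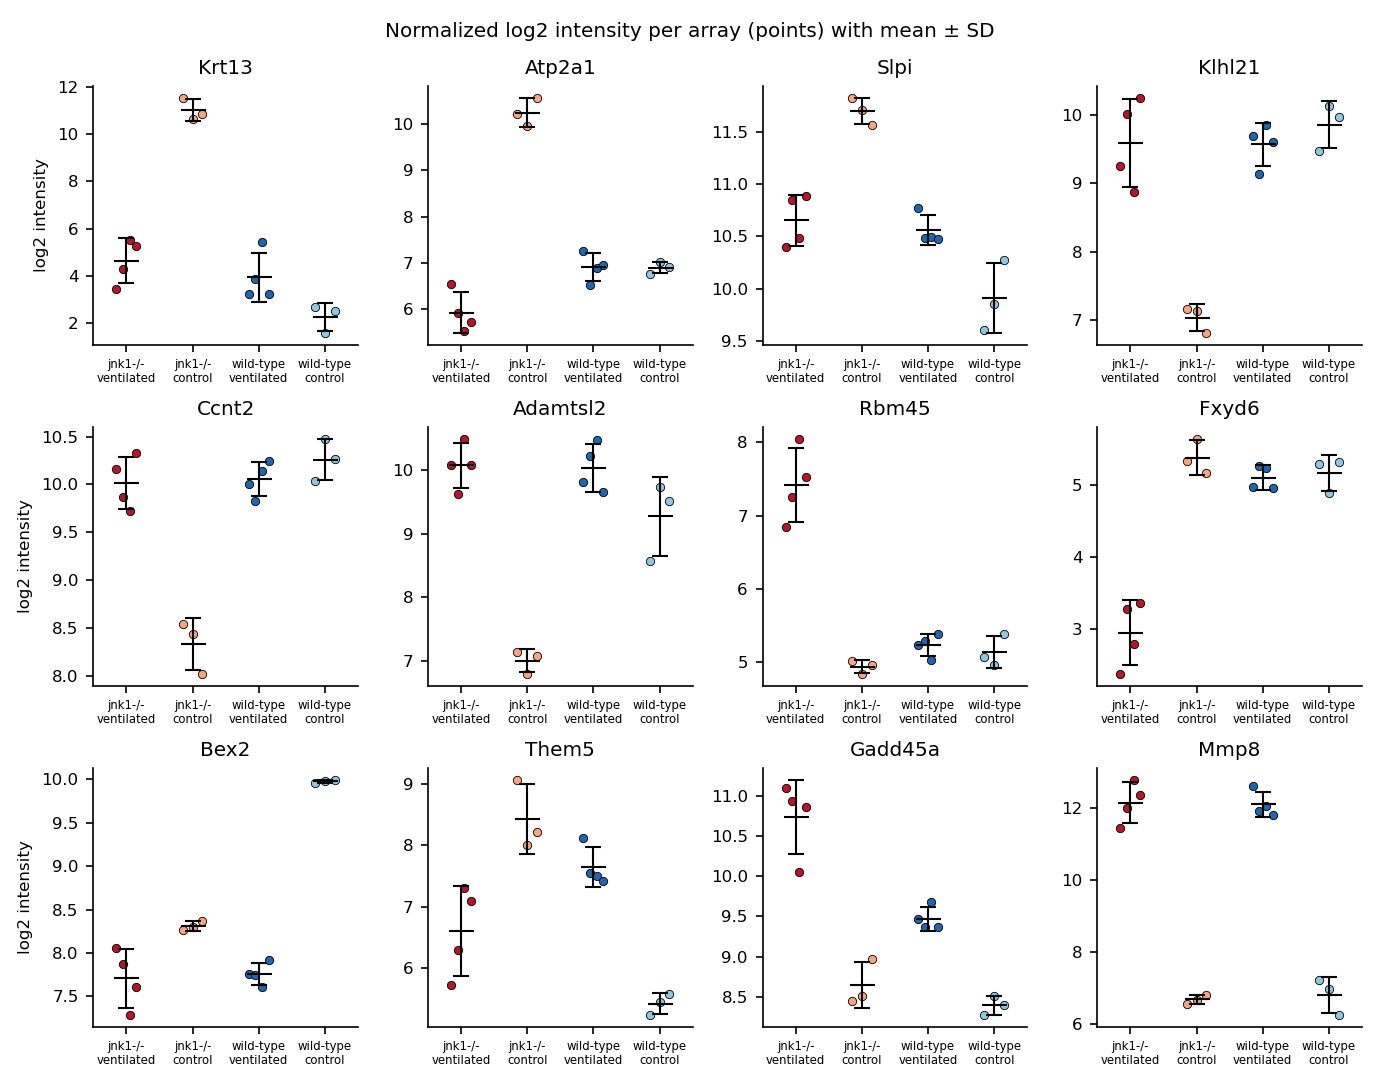
Normalized log2 intensity of 12 genes (vertical axes) by group, with 1 point per array and bars for the mean ± SD (n = 4 ventilated and 3 control mice per genotype). In Krt13, Atp2a1, Slpi, Klhl21, Ccnt2 and Adamtsl2 the jnk1-/- controls stand apart, in Rbm45 and Fxyd6 the ventilated jnk1-/- mice and in Bex2 the wild-type controls. In Krt13 and Slpi the wild-type controls also lie below all other arrays. Mmp8 has effects of 5.47 in jnk1-/- and 5.30 in wild-type mice.

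For genes near the floor only the presence of signal can be compared. Ccl20, a chemokine for immature dendritic cells and Th17 cells, had 2.77, 2.92, 6.43 and 4.74 in ventilated jnk1-/- mice and 7.10, 6.09 and 5.96 in jnk1-/- controls. It had 6.49, 7.74, 4.80 and 6.78 in ventilated wild-type mice and 0.77, −0.65 and 1.38 in wild-type controls, all 3 at the authors' floor. Ccl20 rose by 5.95 in wild-type mice (adjusted p = 0.0058 from limma), and its jnk1-/- effect was −2.17 (adjusted p = 0.15). The difference was −8.12 (adjusted p = 0.0264), and −4.51 to −9.84 over the alternatives, with an adjusted p of 0.0751 in the authors' normalized values. The call was kept in 5 of the 12 other ways of processing and in 7 of the 14 fits with 1 array left out. Matn4, a matrix protein of cartilage and other tissues, read −0.65, −0.65, −0.65 and −0.07 in ventilated wild-type mice, below the range of 2.50 to 4.39 of the other groups. Its difference of 3.58 turned to −0.41 in the authors' normalized values, where all 4 of these arrays and 4 others lie at the floor. Pax8 (4.01), Obi1 (4.77) and Rev3l (2.20) lay at the authors' floor on 12 of 14 arrays, and Foxl1 (−5.80), Il13ra1 (−5.24) and Vmn1r172 (−3.98) on 13 or 14. None of these 6 passed in the authors' table.

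Genes of the JNK cascade and of AP-1 gave no call. Of 34 measured genes of the JNK and stress kinase cascade, 0 passed, 3 were positive and 2 negative at an unadjusted p under 0.05, and the median difference was 0.08. For AP-1 and immediate early genes these were 0 of 31, 1 and 2, with a median of 0.39. Over all genes 5.81% were positive and 7.26% negative at that level, and 17 positive and 36 negative genes passed (0.122% and 0.259%). The median effect of the AP-1 list was 1.01 in jnk1-/- and 0.56 in wild-type mice. Its median level per array was between 7.41 and 8.61 in ventilated jnk1-/- mice and between 6.84 and 7.32 in ventilated wild-type mice. In controls these ranges were 6.43 to 6.64 in jnk1-/- and 5.91 to 6.15 in wild-type mice. Gadd45b, which binds stress kinases, had a jnk1-/- effect of 1.26 and a wild-type effect of 0.01 (difference 1.25, adjusted p = 0.238 from limma). Mapk8ip3, a JNK scaffold, had 1.10 and 0.20 (difference 0.90). Ier5, an immediate early gene, had 2.01 and 0.86 (difference 1.16). On the other side Dusp1, the phosphatase that switches off stress kinases, had a jnk1-/- effect of 0.26 and a wild-type effect of 1.25 (difference −0.99, adjusted p = 0.165). Fosl1, an AP-1 subunit, had 2.18 and 3.23 (difference −1.05), which turned to 0.38 with a floor at the 25th percentile.

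None of the genes that the study measured by RT-PCR passed the threshold for the difference of the effect, which does not show equal responses. By array and RT-PCR, the study reported Gadd45a as higher in ventilated jnk1-/- than in ventilated wild-type mice. It reported Atf4 as regulated in jnk1-/- mice alone, Mmp8 as similar in both genotypes and Ccn5 (Wisp2) as lowered in both. Gadd45a, a growth arrest gene, had 11.10, 10.93, 10.05 and 10.86 in ventilated jnk1-/- mice and 8.45, 8.51 and 8.98 in jnk1-/- controls. It had 9.47, 9.36, 9.69 and 9.37 in ventilated wild-type mice and 8.28, 8.51 and 8.40 in wild-type controls. Ventilated arrays lay above controls in both genotypes, and the ventilated jnk1-/- arrays above all others. Gadd45a rose by 2.09 in jnk1-/- and by 1.08 in wild-type mice, with a difference of 1.01 (95% interval 0.27 to 1.76, adjusted p = 0.24 from limma). Atf4, the transcription factor of amino acid stress, rose by 1.74 in jnk1-/- mice, against a wild-type effect of 0.72, with a difference of 1.02 (95% interval 0.39 to 1.65, adjusted p = 0.173). Mmp8, neutrophil collagenase, rose by 5.47 in jnk1-/- and by 5.30 in wild-type mice, and its difference of 0.17 had an interval of −0.83 to 1.18. Ccn5, a matricellular growth inhibitor, fell by 1.49 in jnk1-/- and by 2.60 in wild-type mice (difference 1.11, 95% interval −0.02 to 2.23).

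Neutrophil genes had a lower median effect in jnk1-/- mice, without calls beyond Slpi. Of 22 measured genes, 0 were positive and 6 negative at an unadjusted p under 0.05, against 5.81% and 7.26% of all genes. The median effect was 1.06 in jnk1-/- and 2.40 in wild-type mice, and the median difference −0.94. Trem1, an activating receptor of neutrophils, rose by 2.83 in jnk1-/- and by 5.00 in wild-type mice (difference −2.17, adjusted p = 0.201 from limma), with all 6 control arrays at the authors' floor. Cd177, a neutrophil surface protein, had effects of 0.85 and 3.43 (difference −2.58) and Ltf, lactoferrin, −2.21 and −0.08 (difference −2.12). The median level of the list per array was between 6.97 and 7.58 in ventilated jnk1-/- mice and between 5.21 and 5.39 in jnk1-/- controls. It was between 6.84 and 8.47 in ventilated wild-type mice and between 4.84 and 5.75 in wild-type controls, so the ventilated groups overlapped. Mpo, a granule enzyme of neutrophils, lay at the authors' floor on 13 of 14 arrays. The chemokine Cxcl2 had effects of 2.11 and 5.06 (difference −2.94, adjusted p = 0.235).

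No heat shock gene passed. Of 25 measured genes 3 were positive and 0 negative at an unadjusted p under 0.05, against 5.81% and 7.26% of all genes. The median difference was 0.49, with members between −1.77 and 2.69. The median effect was 1.61 in jnk1-/- and 0.85 in wild-type mice. Dnajb1, a co-chaperone, had 11.54, 11.31, 7.56 and 11.75 in ventilated jnk1-/- mice and 6.94, 7.36 and 7.29 in jnk1-/- controls. Wild-type mice had 6.91, 7.81, 7.50 and 7.32 after ventilation and 7.03, 6.31 and 6.85 in controls. In ventilated jnk1-/- mice 3 of the 4 arrays were far above all others, and replicate 3 lay within the range of ventilated wild-type mice. The difference was 2.69 (95% interval 0.22 to 5.15, adjusted p = 0.33 from limma), and 3.68 (adjusted p = 0.00221) without that replicate. Replicate 3 was singled out after its values were seen, so p-values without it are a description only. Leaving it out also raised the positive calls over all probes from 37 to 74. The same array was the lowest of its group for Bag3 and Hspd1, with differences of 2.05 and 2.24, and 2.74 (adjusted p = 0.0333) and 2.79 (adjusted p = 0.15) without it. It was also the lowest for Gadd45a and Atf4.

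The other lists gave single genes short of the threshold. At an unadjusted p under 0.05, 5.81% of all genes were positive and 7.26% negative. Ion and water transport had 5 of 24 genes positive and 1 negative. The p53, growth arrest and cell death list had 5 of 32 positive and 1 negative, and the respiratory chain 0 of 52 positive and 7 negative. Smooth muscle genes had 3 of 9 positive at an unadjusted p under 0.05, with Cnn1, calponin, at 1.30, Smtn, smoothelin, at 0.94 and Tagln, transgelin, at 0.71. Fibroblast and pericyte genes had 3 of 23, with Col1a1, a chain of type I collagen, at 1.20, and a median of 0.45. Of 48 matrix and protease genes 3 were positive and 3 negative, which is near the shares over all genes. Stromelysin Mmp3 had 1.82 and the proteoglycan-cleaving Adamts9 1.80. Bcl2, an inhibitor of apoptosis, had 1.59 and Chac1, a glutathione-degrading enzyme of the stress response, 1.79. On the negative side Tubb2b, a beta-tubulin, had −1.12 (adjusted p = 0.0837 from limma), Egln3, an oxygen-sensing hydroxylase, −1.11 (adjusted p = 0.0551) and Pigr, the transporter of secretory IgA, −2.37 (adjusted p = 0.0895). Sftpb had −1.85. Dendritic cell and MHC class II genes had 1 of 21 positive and 3 negative, with Cd74 at −0.78 and H2-DMa at −0.96, and the B cell receptor chain Cd79a had −1.42. Of all 42 lists other than muscle and squamous, 39 held no call, and the other 3 held 1 each, Slpi, Ccl20 and Pax8.

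**Figure D4:**
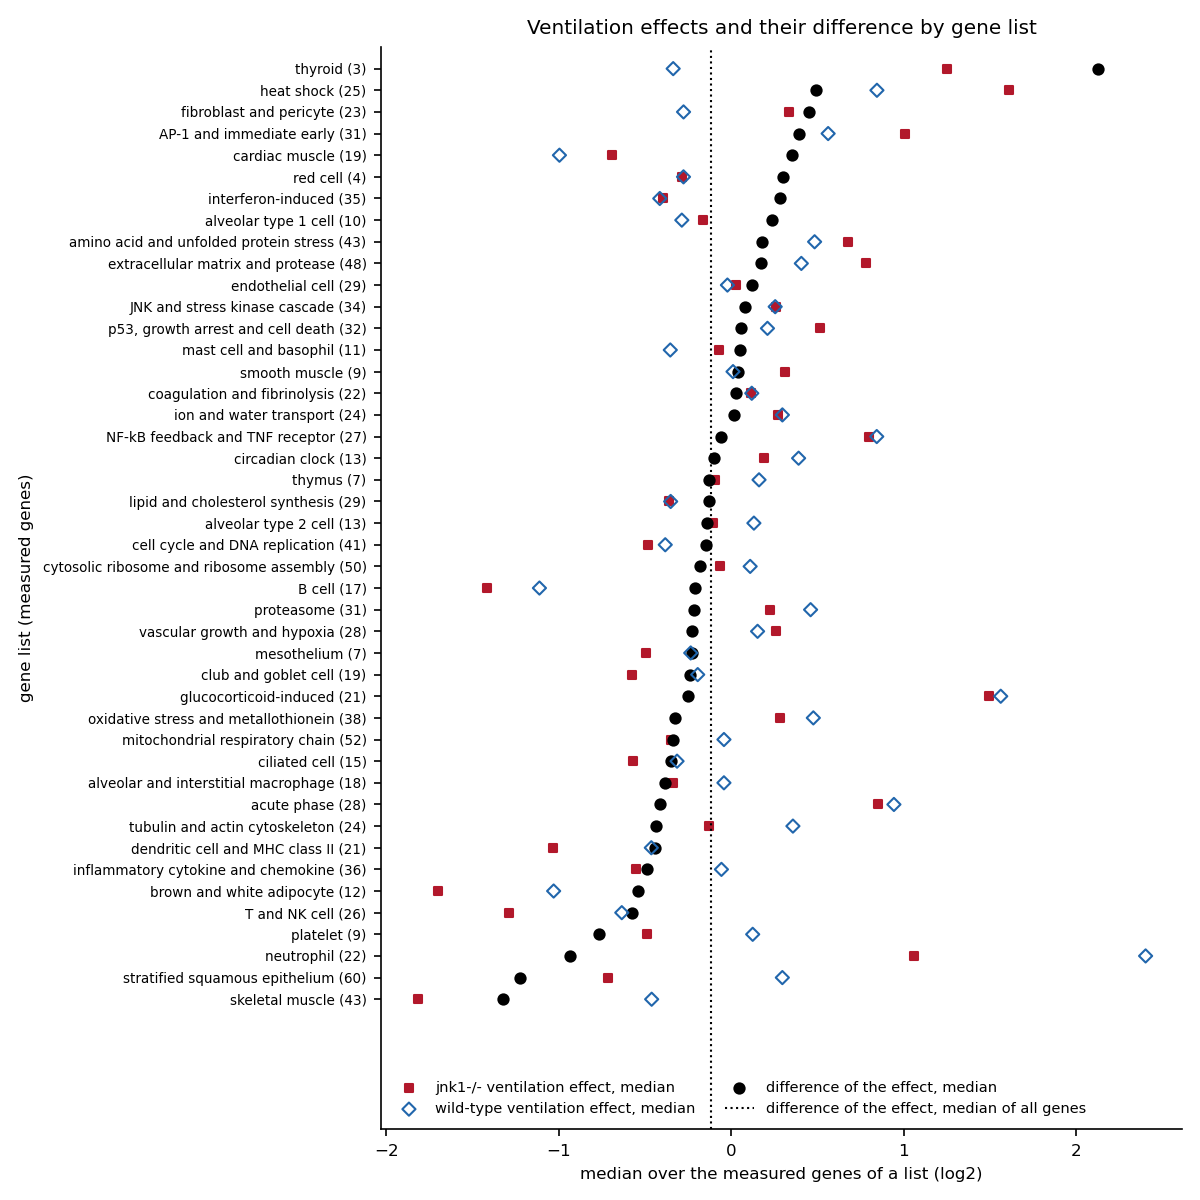
Median ventilation effect in jnk1-/- mice (red squares) and in wild-type mice (open blue diamonds) and median difference of the effect (black circles), in log2, over the measured genes of each of 44 lists (rows, number of genes in brackets), with the median difference of all genes, −0.11, dotted. Skeletal muscle and squamous genes lie lowest at −1.32 and −1.23, and the thyroid list, of 3 genes, highest at 2.13.

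The study had named genes as changed mainly in 1 genotype, a choice made on these arrays and no independent evidence here. Of 16 measured genes listed as changed mainly in jnk1-/- mice, 1 positive and 5 negative passed the test of the difference, and 8 and 6 had an unadjusted p under 0.05. Chka, choline kinase, had effects of 1.76 in jnk1-/- and 0.66 in wild-type mice (difference 1.11, adjusted p = 0.0986 from limma) and Marcks, a substrate of protein kinase C, 1.54 and 0.54 (adjusted p of the difference = 0.129). Selp, P-selectin of activated endothelium, rose by 2.44 in jnk1-/- and by 2.21 in wild-type mice, with a difference of 0.24 (95% interval −0.46 to 0.93). Of 10 genes listed as changed mainly in wild-type mice, Bex2 passed and 2 positive and 2 negative had an unadjusted p under 0.05. Reps2, of endocytosis, had effects of −0.29 and 0.91 (difference −1.20, adjusted p = 0.0685). Hk2, hexokinase 2, rose by 0.87 in jnk1-/- and by 1.14 in wild-type mice, with a difference of −0.27 (95% interval −0.84 to 0.29).

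The positive calls depended on each array. Leaving out any 1 array moved the count of positive calls by over 1.5 times, to between 2 and 21 for 12 of the arrays, and to 76 without wild-type control replicate 1 and 74 without ventilated jnk1-/- replicate 3. Negative calls numbered between 17 and 40 without 1 array, other than 144 without wild-type control replicate 1. With each array left out in turn, 15 of the 78 probes kept their call every time. All 78 kept their sign in each of these fits. With the close pairs of control arrays averaged, 1 positive and 13 negative of the original calls remained.

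**Figure D5:**
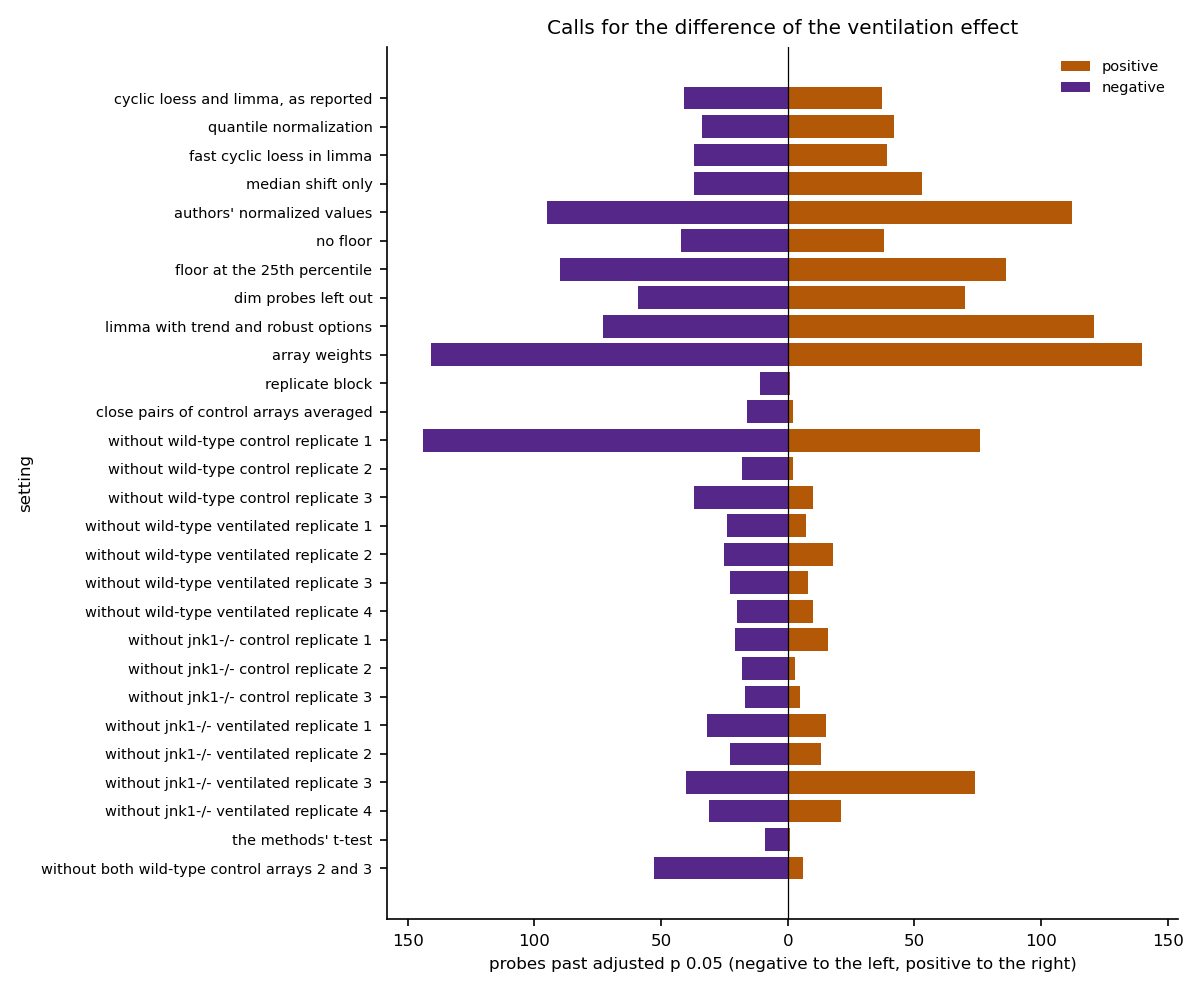
Number of probes past an adjusted p of 0.05 for the difference of the ventilation effect (horizontal axis, negative calls to the left and positive calls to the right) under each setting (rows). Counts of positive calls run between 1 and 140, and the lowest counts are those of the replicate block and the methods' t-test, with 1 positive call each.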

How the data were processed

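RNA of 14 mouse lungs was measured on CodeLink UniSet mouse arrays, 1 per animal. The authors deposited log2 intensities per array before normalization, with a lowest value of −6.86, and a log2 table after cyclic loess with a floor of 3.12, which holds 24.5% of its values. Pairwise cyclic loess (span 0.7, 3 cycles, lowest values left out of the curves) was rerun here on the per-array values, which were then floored at the 1st percentile, −0.65. The 4 group means were fitted in limma 3.58.1 (R 4.3.3), and the difference of the ventilation effect was adjusted by Benjamini-Hochberg over 19621 probes at 0.05. Intervals are 95% intervals from the moderated test. The number of arrays limits the precision, and nothing in the sources says more of the replicates than 1 animal each. Scripts were tested on simulated data. Probes with 1 gene name in the platform annotation were named (15353, and 91 had several and 4177 none), and a gene in a list was read from its brightest probe. Gene lists (44, with 1061 of 1260 genes measured) and members were chosen with earlier results of these data known. Outside the muscle and squamous lists, the text names called genes above the authors' floor on all arrays and those with floor values, up to 12 and 6 per direction. From both lists it names up to 5 per direction, and from other lists up to 4 with an unadjusted p under 0.05, besides the study's genes and those with opposite effects. Fxyd6, Fcgr1, Mylpf, Rptn and probe 18549 were chosen after their values were seen. Alternatives covered normalization, floor, filter, variance model, replicate block and left-out arrays.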

Additional observations from a re-analysis of the deposited data

Results flagged for a closer look

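The following named genes passed the test of the difference of the ventilation effect between the genotypes, and each value is that difference in log2. The negative ones were Defb5 (−3.07), Lce3b (−2.83), Lce1d (−1.80), Larp4b (−1.73), Srpk3 (−1.72), 9130015A21Rik (−1.70), Strc (−1.13), Slpi (−1.69), Them5 (−4.07), Vmn1r172 (−3.98), Gsdma (−3.17), Ccl20 (−8.12), Foxl1 (−5.80), Il13ra1 (−5.24), Trex2 (−5.10), Acta1 (−8.03), Defb4 (−8.20), Krt13 (−8.04), Crct1 (−7.84), Tnnc2 (−7.30), Defb7 (−6.76), Atp2a1 (−4.32), Calm4 (−4.24), Tnni2 (−3.75), Fxyd6 (−2.36), Fcgr1 (−2.23), Mylpf (−5.33) and Rptn (−3.33). The positive ones were Tpp2 (1.86), Ccnt2 (1.89), Tulp4 (1.92), Tbx6 (1.96), Ogt (1.99), Adamtsl2 (2.31), Rbm45 (2.39), Lpp (2.52), Klhl21 (2.84), Pkp2 (2.93), Adam1a (2.19), Rev3l (2.20), Matn4 (3.58), Atp7a (5.04), Pax8 (4.01), Obi1 (4.77) and Bex2 (1.62).

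In 11 of the 168 groups of 4 ventilated arrays tested, 1 array lay apart from the other 3 by its gap relative to the range of the group, where chance gives about 1 in 20. In ventilated jnk1-/- mice these were Dnajb1 in replicate 3 (7.56), Atf4 in replicate 3 (13.21), Cox7a2 in replicate 1 (5.68) and Adam1a in replicate 2 (7.18). In ventilated wild-type mice these were Slpi in replicate 1 (10.77), Tnni2 in replicate 3 (8.08) and Cnn1 in replicate 4 (11.24). The other 4 groups lay wholly at the authors' floor and show no array apart in signal. In Vmn1r172 (jnk1-/- replicate 4, −0.34), Il13ra1 (jnk1-/- replicate 4, −0.39) and Matn4 (wild-type replicate 4, −0.07) the other 3 arrays were tied at the floor set here, and in Obi1 (wild-type replicate 1, −0.65) the array itself was at it. Without wild-type ventilation replicate 4 the difference of Cnn1 was 1.57 (adjusted p = 0.0273 from limma), against 1.30 (adjusted p = 0.155) with it. That array was singled out because it lay apart, so the smaller p-value is a description only.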

How the results depend on the processing

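All 78 called probes kept their sign under the alternatives other than the authors' normalized values (75 of 78) and a floor at the 25th percentile (77 of 78), among those still tested. The numbers of calls (in all, positive, negative) were 78, 37 and 41 as reported. They were 207, 112 and 95 in the authors' normalized values, 176, 86 and 90 with a floor at the 25th percentile, 129, 70 and 59 with dim probes left out, 194, 121 and 73 with trend and robust variance, and 281, 140 and 141 with array weights. They were 18, 2 and 16 with close control pairs averaged. The methods' Welch t-test, extended here to the difference of the effect, gave 10, 1 and 9, and 1977 at an unadjusted p under 0.05. Same-numbered arrays of different groups did not on average deviate together (mean r −0.0108). Of their 19 pairs 2 had an r over 0.1, against 7 of 54 differently numbered pairs. The labels do not say what the numbers mean, and these correlations cannot settle whether they pair animals. With them as a replicate block there were 12, 1 and 11 calls. Without both wild-type controls 2 and 3, a setting chosen after seeing the data, there were 59, 6 and 53. With 1 array left out the ranges were 20 to 220, 2 to 76 and 17 to 144. The cause of these shifts was not tested. Signs turned for Mmp8 (−0.042 by fast loess, −0.038 to 0.46 with 1 array left out), Hk2 (0.0039 after a median shift), Matn4 (−0.41 in the authors' values), Mapk8 (−0.27 in the authors' values, −0.35 with the 25th percentile floor, −0.40 to 1.23 with 1 array left out) and Fosl1 (0.38 with the 25th percentile floor). Of the 84 genes followed over all settings, 45 were called as reported and 39 were not. In these settings 524 values of the 45 called genes lost the call, and 44 values of the other 39 gained one. Over both sets 1681 values kept their status and 9 turned sign. Low signal limits the genes at the floor, whose sizes depend on where it is set.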

Other observations

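Cox7a2, a subunit of cytochrome c oxidase, had 5.68, 5.31, 5.37 and 5.36 in ventilated jnk1-/- mice and 6.59, 10.95 and 11.58 in jnk1-/- controls. It had 11.59, 11.90, 11.76 and 11.94 in ventilated wild-type mice and 11.98, 11.84 and 11.94 in wild-type controls. The jnk1-/- control replicate 1 lay near the ventilated jnk1-/- arrays and the other two near wild-type. The difference of the effect was −4.15 (adjusted p = 0.191 from limma), and −5.71 (adjusted p = 1.2e-05) without jnk1-/- control replicate 1. That array was singled out after its values were seen, so the smaller p-value is a description only. The ventilated genotypes differed by −6.37 (adjusted p = 0.0026).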
